A study of Mus musculus with 6 samples.

Results

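Complex I, the NADH:ubiquinone oxidoreductase of the mitochondrial inner membrane, was examined through the nuclear genes that encode its subunits and a family of its assembly factors. All genes whose symbol was Nduf followed by a, b, c, s, v, ab or af and a number were taken, which gave 45 of the 37224 genes in the deposited expression table. Of these, 37 are counted here as subunit genes, among them Ndufa4, which is now assigned to cytochrome c oxidase. The other 8, Ndufaf1 to Ndufaf8, encode assembly factors, which help to build the complex and are not part of the finished enzyme. All 45 reached 1 RPKM (reads per kilobase of gene length, scaled to library depth) in at least 1 library, so none was lost to the filter on low values.

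RNA-seq had been done on mouse embryonic fibroblasts, labelled as primary cells of C57BL/6 background and grown in high-glucose medium with serum. The groups were Dot1L-/- cells with sodium arsenite, Dot1L-/- cells without it, wild-type cells with sodium arsenite and untreated wild-type cells. Dot1L is a methyltransferase of histone H3, and the labels do not say how its gene was inactivated or whether the cells came from separate embryos or cultures. Exposure lasted 24 h at a dose labelled low, and the protocol lists 5 and 10 µM beside 0 µM without saying which was sequenced. Each group held 1 library, so every difference below is between libraries, has no replicate check and carries no test.

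Complex I passes electrons from NADH to ubiquinone and pumps protons, and so feeds the respiratory chain. Its peripheral arm, in the matrix, holds the flavin and the iron-sulfur clusters, and its membrane arm holds the proton pumps. The core subunits, shared with bacteria, are encoded by nuclear genes for the peripheral arm and by mitochondrial DNA for the membrane arm. Many accessory subunits, mostly small proteins, surround this core. The roles given below are known mainly from the human and bovine enzymes.

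Reads by which the authors had scaled each library, recovered from the steps of the RPKM values, numbered 11879632 and 64699847 in Dot1L null cells with and without arsenite, and 10833103 and 62972880 in wild-type cells with and without it. The controls were 5.45 and 5.81 times deeper, but even the least covered member had 46 reads in a library. Summed over all genes, RPKM was 1.87 and 1.92 times larger with arsenite than in the control. Depth moved with the treatment in both genotypes, and its part in the results was not tested. Dot1l itself had 1.24 RPKM in the null with arsenite and 9.59 in the untreated null, against 5.71 in wild type with arsenite and 30.4 in untreated wild type, and was thus lower but not absent in the libraries labelled null. Hmox1, a stress gene known to respond to arsenite, had 618 RPKM in the null with arsenite and 405 RPKM in the untreated null, against 416 RPKM in wild type with arsenite and 82.4 RPKM in untreated wild type. The untreated null was thus near wild type with arsenite for this gene. Mt1, a metallothionein gene, had 1924 and 258 RPKM with and without arsenite in the null and 1259.7 and 203 RPKM in wild type. Of 11 fibroblast markers 8 passed the filter, with Vim between 702 and 1310.2 RPKM, while Thy1 was listed at 0 throughout and Lum and Fap stayed near 0. Their summed level was 12118 and 2275 RPKM with and without arsenite in the null and 4990 and 2653 RPKM in wild type, most of it S100a4 with arsenite. Of the 8 markers, S100a4 alone was higher with arsenite by 2-fold, as were 15.2% and 12.8% of all genes in the null and wild type. In the null 3 were lower (Col1a2, Pdgfrb and Dcn), near the 37.1% of all genes lower there. In wild type 6 were lower (these, Col1a1, Col3a1 and Pdgfra), beside 35.7% of all genes. The median log2 differences of the markers were −0.83 and −2.50, at a median length of 6020.5 bases. All genes of 4000 bases or more had medians of −1.13 and −1.16. The part of the marker shifts in the results was not tested. Summed RPKM of markers of macrophages, epithelium, endothelium and muscle lay between 0.153 and 9.28 in every library, and that of neural markers between 34.7 and 122. In bulk RNA, fewer cells of a type and less RNA per cell cannot be told apart.

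Most complex I subunit genes had higher RPKM with arsenite, in both genotypes, while the median log2 difference of all genes was negative. At a threshold of 2-fold on the log2(RPKM + 1) scale, 27 of 37 subunits were higher with arsenite in Dot1L null cells and 31 of 37 in wild-type cells, where 15.2% and 12.8% of all 12588 genes past the filter were higher. Ndufs1 alone was lower by 2-fold or more in each genotype, a direction taken by 37.1% of all genes in the null, 35.7% in wild type and 26.3% in both. The median log2 difference of the subunits was 1.56 in the null and 2.01 in wild type, and that of all genes was −0.53 and −0.56. The same 27 subunits that were higher in the null were among the 31 of wild type, against 8.4% of all genes higher in both. In 33 of 37 subunits both arsenite libraries lay above both controls, a pattern of 17.9% of all genes, and in 2 of 37, Ndufs1 among them, both lay below, as in 46.9% of all genes. With each library scaled to its summed RPKM, a setting added after the data were seen, 17 subunits were higher and 3 lower in the null and 22 higher and 1 lower in wild type, with subunit medians of 0.67 and 1.11 and medians of all genes of −1.38 and −1.47.

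Levels of the subunits spanned a wide range. Their median was 149 RPKM in the null with arsenite and 38.9 RPKM in its control, against 141 RPKM in wild type with arsenite and 32.1 RPKM in its control. Their sum was 3.80-fold higher with arsenite in the null and 4.68-fold higher in wild type. Ndufa4, now assigned to cytochrome c oxidase, is part of these sums. With arsenite it held 1317 of 7907 RPKM in the null and 1129 of 7831 RPKM in wild type. In the controls it held 245 of 2079 RPKM in the null and 155 of 1674 RPKM in wild type. As a share of the summed RPKM of the library, the subunits made up 1.19% with arsenite and 0.589% without it in the null, and 1.26% with arsenite and 0.518% without it in wild type. The spread among them was larger with arsenite as well: the SD of log2 RPKM was 1.88 with arsenite and 1.40 in the control in the null, and 1.75 and 1.40 in the same order in wild type. The rank order of the 37 levels was close between the 2 arsenite libraries (Spearman rho 0.93 across genes) and between the 2 controls (0.87), and less so between arsenite and control within the null (0.56) or within wild type (0.63).

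**Figure D1:**
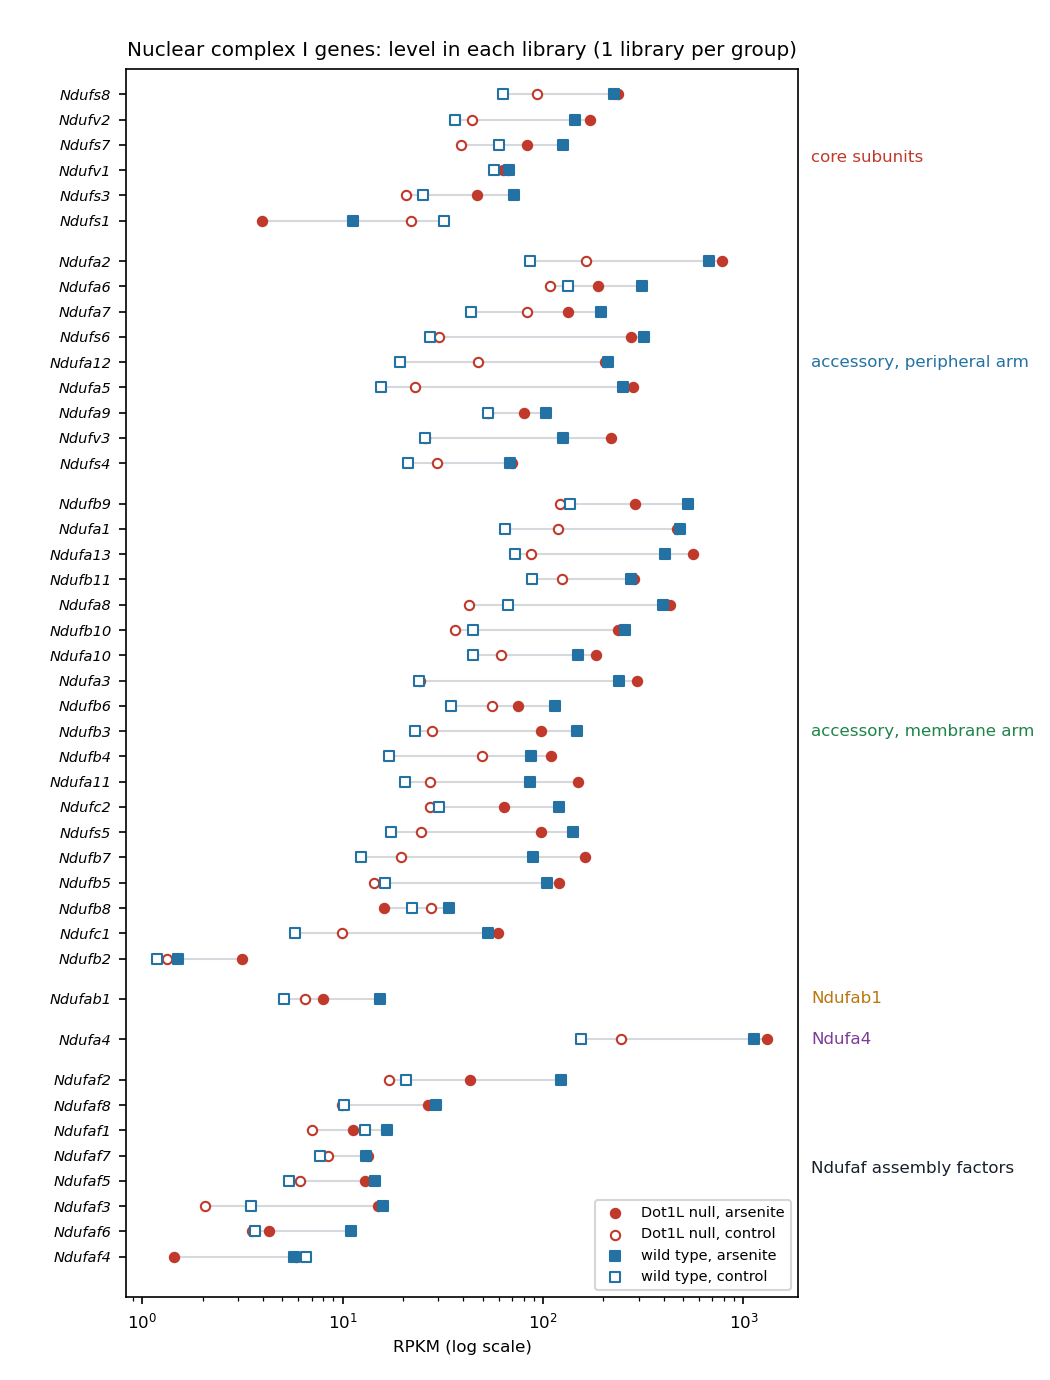
RPKM on a log axis of nuclear complex I genes, grouped by role, in the 4 libraries (red circles, Dot1L null; blue squares, wild type; filled, arsenite; open, control). Filled symbols lie to the right of open ones for most subunits, and to the left for Ndufs1.

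The 7 core subunits of the peripheral arm, which build the path from NADH to ubiquinone, were divided. Ndufv2, Ndufs3, Ndufs7 and Ndufs8 were higher with arsenite in both genotypes, Ndufs1 was lower in both, and Ndufv1 was past 2-fold in neither. The median log2 difference of the 7 was 1.07 in the null and 1.04 in wild type.

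Ndufs1 (chr1:63143592-63176822 in GRCm38) encodes the largest subunit, which carries iron-sulfur clusters of the electron path. It had 3.95 RPKM in the null with arsenite and 21.97 RPKM in the untreated null, against 11.3 RPKM in wild type with arsenite and 32.1 RPKM in untreated wild type. The arsenite libraries were the lowest of the 4, at 5.56-fold lower than control in the null (95% counting interval 4.78 to 6.51) and 2.84-fold lower in wild type (2.58 to 3.13). The span of Ndufs1 overlaps that of the long noncoding gene Ino80dos over 14704 bases, so its value is uncertain where the counting could not part them.

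Ndufv1, which binds NADH and the flavin, had 63.4 RPKM with arsenite and 66.6 RPKM without it in the null, and 67.4 RPKM with arsenite and 56.6 RPKM without it in wild type. These levels lay close together across all 4 libraries. By contrast, Ndufv2, the partner of Ndufv1 in the NADH-oxidising module, had 171 RPKM in the null with arsenite and 44.2 RPKM in its control, against 144 RPKM in wild type with arsenite and 36.5 RPKM in its control. It was 3.88-fold higher in the null (3.73 to 4.04) and 3.96-fold higher in wild type (3.78 to 4.14). The 3 core subunits of the electron-accepting head thus differed among themselves: Ndufs1 was lower, Ndufv1 near its control and Ndufv2 higher.

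Ndufs8, which carries iron-sulfur clusters, was 2.55-fold higher in the null (2.44 to 2.67) and 3.58-fold higher in wild type (3.40 to 3.77). Ndufs3, a scaffold of the ubiquinone module, was 2.25-fold higher in the null (2.10 to 2.41) and 2.83-fold higher in wild type (2.67 to 3.004). Ndufs7, which holds the last cluster before ubiquinone, was 2.13-fold higher in the null (2.01 to 2.25) and 2.08-fold higher in wild type (1.98 to 2.18).

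Accessory subunits of the peripheral arm included the member with the highest difference in each genotype. Of 9 such genes, 6 were higher with arsenite in the null and 8 in wild type, with medians of 2.08 and 2.24. Ndufa5, a small subunit of the matrix side, had 282 RPKM in the null with arsenite and 22.9 RPKM in its control, against 249.6 RPKM in wild type with arsenite and 15.5 RPKM in its control. It was the highest member in each genotype, at 12.3-fold (11.6 to 13.1) in the null and 16.1-fold (15.0 to 17.3) in wild type. In the null its interval overlapped that of Ndufa3 of the membrane arm, at 12.1-fold (10.8 to 13.5). Ndufs6, a zinc-binding subunit, stood at 276 and 30.4 RPKM with and without arsenite in the null, and at 319 and 27.4 RPKM with and without it in wild type. That made it 9.09-fold (8.56 to 9.64) and 11.6-fold (10.9 to 12.4) higher. For Ndufa12, a late-joining subunit of the same arm, 203 and 47.4 RPKM were found with and without arsenite in the null, and 212 and 19.4 RPKM in wild type. The 2 arsenite libraries of Ndufa12 were close, and its larger difference in wild type, 10.9-fold (10.3 to 11.6) against 4.29-fold (4.09 to 4.49) in the null, went with a lower wild-type control. At the other end, Ndufa9, bound beside the ubiquinone site, was 1.51-fold (1.41 to 1.60) higher in the null and 1.94-fold (1.83 to 2.06) higher in wild type, past the threshold in neither. Ndufa6 was 1.74-fold (1.63 to 1.85) and 2.35-fold (2.23 to 2.48) higher.

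Of 19 accessory subunits assigned to the membrane arm, 16 were higher with arsenite in the null and 17 in wild type, with medians of 1.94 and 2.46, and none was lower by 2-fold. Ndufa3 had 293 RPKM in the null with arsenite and 24.3 RPKM in its control, against 239 RPKM in wild type with arsenite and 24.0 RPKM in its control. Both arsenite libraries were about equally far above equal controls, at 12.1-fold (10.8 to 13.5) and 9.96-fold (8.84 to 11.2). Ndufa8, a subunit of the intermembrane space side, had 432 RPKM in the null with arsenite and 42.5 RPKM in its control, against 396 RPKM in wild type with arsenite and 67.2 RPKM in its control. Ndufb8 and Ndufb2 were past 2-fold in neither genotype on the log2(RPKM + 1) scale. Ndufb8, at the far end of the membrane arm, had 16.2 RPKM in the null with arsenite and 27.5 RPKM in its control, against 34.0 RPKM in wild type with arsenite and 22.3 RPKM in its control. It was 1.70-fold lower with arsenite in the null (1.57 to 1.85) and 1.53-fold higher in wild type (1.43 to 1.63), so the arsenite libraries were the lowest and the highest of the 4. Ndufb2 was the least abundant subunit in every library, between 1.18 and 3.14 RPKM, and its ratio of RPKM was 2.36 (1.86 to 2.98) in the null and 1.28 (0.909 to 1.77) in wild type. At such low levels the added 1 RPKM kept the null difference inside the threshold, at 0.83. Ndufb6 was 1.36-fold (1.24 to 1.49) higher in the null and 3.30-fold (3.02 to 3.60) higher in wild type.

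Ndufab1 and Ndufa4 stand somewhat apart by function. Ndufab1 encodes the mitochondrial acyl carrier protein, which also serves lipoic acid synthesis. It had 7.97 RPKM with arsenite and 6.47 RPKM without it in the null, and 15.4 RPKM with arsenite and 5.08 RPKM without it in wild type. The annotated copy Ndufab1-ps, outside the 45 genes, had 10.3 and 3.14 RPKM with and without arsenite in the null and 11.2 and 1.63 RPKM in wild type, and reads of the pair could be split by the counting, so both values are uncertain. Ndufa4, first described in complex I and now assigned to cytochrome c oxidase, was the most abundant member in all 4 libraries, with 1317 and 245 RPKM with and without arsenite in the null and 1129 and 155 RPKM in wild type. It was 5.37-fold (5.20 to 5.54) and 7.29-fold (7.02 to 7.58) higher with arsenite.

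Promoters of members with contrasting values are shown for reference, each as the 300 bases that RefSeq places around the start site, 250 before it and 50 from it on, in GRCm38.p6. Ndufs6 (chr13:73328433-73328732, minus strand) and Ndufa5 (chr6:24527641-24527940, minus strand) were among the members with the largest differences with arsenite in both genotypes. Ndufb8 (chr19:44555393-44555692, minus strand) went opposite ways, and the assembly factor gene Ndufaf4 (chr4:24897833-24898132, plus strand), described below, had the lowest difference of the factors in both. Capitals mark matches, on either strand, to AAGATGGC (YY1), CCGGAAG (ETS factors such as GABPA) or GCGC, any base, then TGCGC (NRF1), motifs of factors known for respiratory chain genes.
Ndufs6: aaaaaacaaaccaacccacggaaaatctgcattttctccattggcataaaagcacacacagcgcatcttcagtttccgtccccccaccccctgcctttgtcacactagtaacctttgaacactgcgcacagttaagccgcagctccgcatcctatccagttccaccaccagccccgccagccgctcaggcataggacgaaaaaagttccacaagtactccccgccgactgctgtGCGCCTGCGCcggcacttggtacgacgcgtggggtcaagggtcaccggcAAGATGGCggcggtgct
Ndufa5: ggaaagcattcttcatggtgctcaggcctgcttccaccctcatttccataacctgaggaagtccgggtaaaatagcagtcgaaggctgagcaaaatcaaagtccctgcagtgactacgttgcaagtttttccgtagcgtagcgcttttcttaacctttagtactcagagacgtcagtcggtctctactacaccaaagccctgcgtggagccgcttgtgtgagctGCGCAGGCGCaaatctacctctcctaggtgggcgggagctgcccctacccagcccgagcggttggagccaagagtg
Ndufb8: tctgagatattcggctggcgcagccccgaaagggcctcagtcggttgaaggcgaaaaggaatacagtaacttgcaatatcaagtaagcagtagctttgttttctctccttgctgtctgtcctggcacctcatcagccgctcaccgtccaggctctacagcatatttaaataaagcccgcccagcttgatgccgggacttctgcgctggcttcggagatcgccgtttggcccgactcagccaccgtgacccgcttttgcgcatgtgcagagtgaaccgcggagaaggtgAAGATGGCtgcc
Ndufaf4: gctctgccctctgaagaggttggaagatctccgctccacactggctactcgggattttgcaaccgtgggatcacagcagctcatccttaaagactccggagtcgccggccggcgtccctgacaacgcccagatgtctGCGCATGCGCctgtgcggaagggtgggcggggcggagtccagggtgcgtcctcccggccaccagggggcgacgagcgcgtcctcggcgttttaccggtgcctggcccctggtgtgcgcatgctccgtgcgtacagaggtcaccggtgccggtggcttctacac

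Windows were held for 33 subunits and 7 Ndufaf factors. AAGATGGC was found for 7 of the 33 subunits and 1 of the 7 factors, beside 3.19% of all 27025 genes with a window. The NRF1 motif was found for 7 subunits and 2 factors, beside 5.19% of all genes, and CCGGAAG for 4 subunits and 2 factors, beside 9.93% of all genes. CCGGAAG ends in the letters AAG with which AAGATGGC starts, so those motifs can overlap. Ndufs6 and Ndufaf8 held 2 different motifs each. In Ndufs6 the NRF1 match begins 16 bases before the start site and the AAGATGGC match 33 bases after it, and in Ndufb8 the AAGATGGC match begins 38 bases after it. Ndufaf4 and Ndufa5, with opposite differences, both hold an NRF1 match.

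The Ndufaf assembly factors were far less abundant than the subunits, and fewer were past the threshold with arsenite. Their median level was 13.2 RPKM with arsenite and 6.57 RPKM without it in the null, and 15.2 RPKM with arsenite and 7.14 RPKM without it in wild type. Of the 8, 3 were higher by 2-fold or more in the null and 5 in wild type, where 15.2% and 12.8% of all genes were. Ndufaf4 was lower in the null, as were 37.1% of all genes. Medians of the log2 difference of the 8 factors were 0.79 and 1.32, below those of the subunits by 0.77 and 0.70. With the libraries scaled to their summed RPKM the factor medians were −0.0222 and 0.51, so the direction in the null depended on the scaling. Per 100 RPKM of summed subunits there were 1.62 RPKM of summed factors with arsenite and 2.89 without it in the null, and 2.92 with arsenite and 4.23 without it in wild type. The subunit sums include Ndufa4. Ndufaf2, whose value is uncertain as described below, made up much of the factor sums. With arsenite it held 43.1 of 128 RPKM in the null and 123 of 229 RPKM in wild type. In the controls it held 17.1 of 60.0 RPKM in the null and 20.8 of 70.8 RPKM in wild type.

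Ndufaf4, which acts with Ndufaf3 early in assembly, had 1.45 RPKM in the null with arsenite and 5.82 RPKM in its control, against 5.75 RPKM in wild type with arsenite and 6.60 RPKM in its control. The null library with arsenite stood apart below the other 3, at 4.03-fold (3.15 to 5.23) lower than its control, while wild type was 1.15-fold (1.00 to 1.32) lower. Its partner Ndufaf3 went the other way, with 15.0 RPKM in the null with arsenite and 2.06 RPKM in its control, against 15.9 RPKM in wild type with arsenite and 3.49 RPKM in its control. That is 7.29-fold (5.30 to 10.1) higher in the null and 4.57-fold (3.44 to 6.06) higher in wild type, from counts of 71 to 117 reads per library.

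Ndufaf2, a paralog of Ndufa12 that leaves the complex as Ndufa12 joins, had 43.1 RPKM in the null with arsenite and 17.1 RPKM in its control, against 123 RPKM in wild type with arsenite and 20.8 RPKM in its control. Its span holds 5149 bases shared with Gm52057 on the same strand, so its value is uncertain. It was the most abundant factor in every library and was 2.53-fold (2.22 to 2.87) higher in the null and 5.90-fold (5.38 to 6.48) higher in wild type. Ndufaf8, which stabilises Ndufaf5, was 2.68-fold (2.29 to 3.13) and 2.88-fold (2.47 to 3.37) higher. Ndufaf5, which hydroxylates Ndufs7, was 2.11-fold (1.83 to 2.43) higher in the null and 2.66-fold (2.30 to 3.07) higher in wild type. On the log2(RPKM + 1) scale its difference of 0.97 in the null lay just inside the 2-fold bounds.

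Ndufaf6, an early assembly factor, had 4.29 RPKM with arsenite and 3.54 RPKM without it in the null, and 11.1 RPKM with arsenite and 3.66 RPKM without it in wild type. Ndufaf7, a protein arginine methyltransferase of mitochondria, was 1.59-fold (1.41 to 1.79) and 1.70-fold (1.502 to 1.93) higher, past the threshold in neither genotype. Ndufaf1, which acts in the membrane arm assembly complex, was 1.61-fold (1.37 to 1.89) and 1.28-fold (1.12 to 1.46) higher.

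Gene length moved with these differences, in the whole table and among the members. Over 12155 genes with a recovered length the log2 difference with arsenite changed by −0.66 per doubling of length in the null and by −0.63 in wild type. Across the 37 subunits, Pearson's r of the difference with log2 length was −0.39 (Spearman rho −0.32) in the null and −0.50 (−0.46) in wild type. For the 8 factors r was −0.88 (−0.81) and −0.87 (−0.90). These are correlations across genes that share their libraries and the lengths by which RPKM was divided. Median length was 1243 bases for the subunits, 1368 bases for the factors and 3434 bases for the 12155 genes, and the core subunits were longer, with a median of 2142 bases, than the accessory ones with 1101 bases. Ndufs1 and Ndufaf4, the lowest members in each genotype, were also among the longest, at 3667 and 3902 bases.

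Within length classes the subunit medians lay above those of all genes, by an amount that differed between classes and with the abundance of the genes compared. Between 1000 and 2000 bases the medians of 11 subunits were 2.08 in the null and 2.28 in wild type, against 0.31 and 0.33 for all 1918 genes of the class, and 3 factors had medians of 0.62 and 1.27. The 1067 genes of the class with a mean of at least 10 RPKM had medians of 0.56 and 0.70. Of the 11 subunits 9 and 10 were higher, where 31.4% and 27.9% of the class were, and of the 3 factors 0 and 2. From 500 to 1000 bases 12 subunits had medians of 1.29 and 1.95, 3 factors 1.34 and 1.92, and all 737 genes 1.14 and 1.01. There 10 and 12 subunits and 3 factors in each genotype were higher, beside 55.2% and 50.2% of the class. Against the 337 genes of this class with a mean of at least 10 RPKM, whose medians were 1.64 and 1.80, the subunits were lower in the null and slightly higher in wild type. The 3 subunits from 200 to 500 bases were higher in both genotypes, beside 53.7% and 43.5% of 322 genes. Their medians were 2.42 and 2.87, against 2.84 and 2.75 for the 72 genes of that class with a mean of at least 10 RPKM. From 2000 to 4000 bases 9 subunits had medians of 0.83 and 0.59, against −0.43 and −0.44 for all 4132 genes, and the 2 factors, Ndufaf4 and Ndufaf7, had medians of −0.43 and 0.26. Higher were 4 of the 9 subunits in each genotype, beside 11.4% and 8.62% of the class. In all, 32 of 37 subunits in the null and 36 of 37 in wild type exceeded the median of their length class, as did 6 and 8 of the 8 factors. At the long end, Ndufb7 had a recovered length of 4522 bases and 8.26-fold (7.99 to 8.54) and 7.18-fold (6.87 to 7.51) higher values. That length takes up most of its genomic span of 4866 bases, so it may not be that of the mature RNA. Ndufab1, with 6883 bases and the uncertain values given above, was 1.23-fold higher in the null, inside the threshold, and 3.02-fold higher in wild type. Of the class of these 2 genes, 3.01% and 1.9% were higher. With the trend on length removed, 20 of 37 subunits were higher in the null and 27 of 37 in wild type, where 20.0% and 15.8% of all genes were, and the factors were higher in 1 and 2 of 8 cases. Ndufs1 alone was then lower in the null (21.0% of all genes), and no member in wild type (15.4%). The subunit medians were then 1.15 and 1.86 and the factor medians 0.30 and 0.82.

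**Figure D2:**
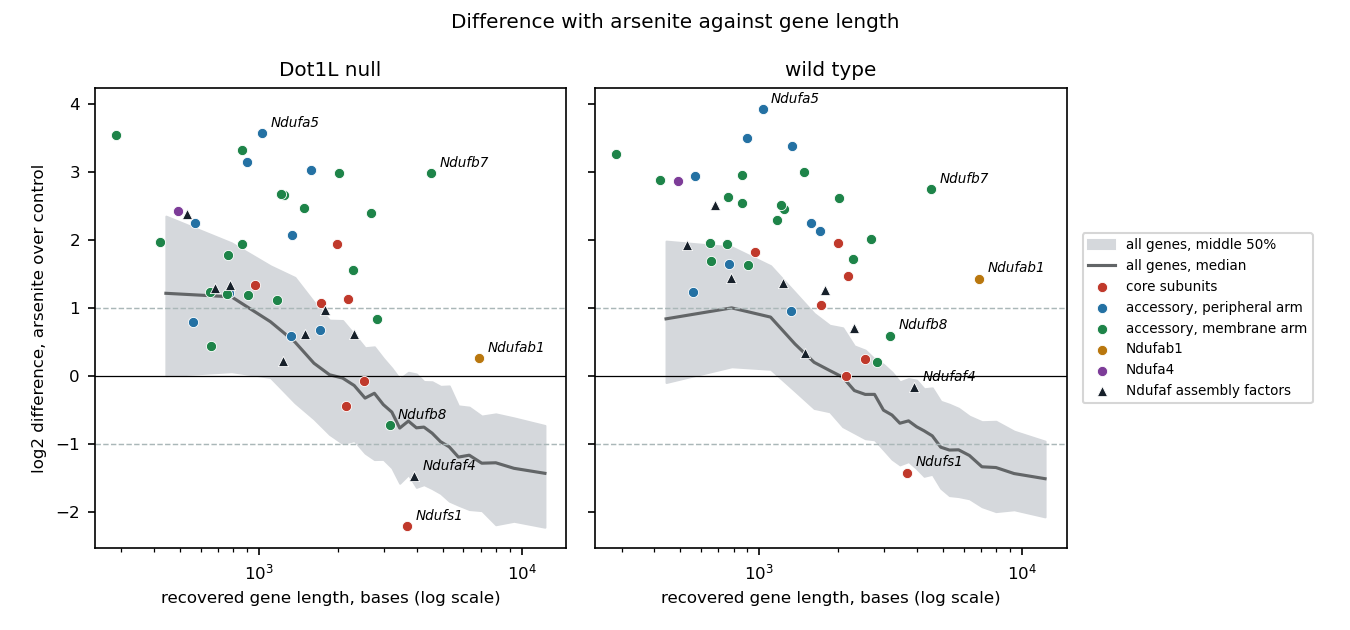
Log2 difference with arsenite (vertical axis) against recovered gene length in bases on a log axis, in Dot1L null cells (left) and wild-type cells (right). The grey line and band give the median and middle 50% of all genes in 25 length bins, dots the subunits and triangles the Ndufaf factors. Ndufa5 lies highest, Ndufb7 far above genes of its recovered length, and Ndufs1 below those of its own.

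The genotypes were set against each other next. Without arsenite, subunits tended to higher values in the null, with a median log2 difference of 0.27 against −0.17 for all genes. Genes with a mean of at least 10 RPKM had medians of 0.21 from 500 to 1000 bases and −0.02 from 1000 to 2000 bases. The subunits of these classes had 0.37 and 0.27. Nuclear subunits of complexes IV and V had similar medians of 0.24 and 0.26, and those of complexes II and III had 0.0023 and 0.082. Of the 37 subunits 27 were above 0, beside 4976 of all 12588 genes. Only Ndufb4 and Ndufa12 were higher by 2-fold (6.45% of all genes) and no subunit was lower by 2-fold (14.7% of all genes). Ndufb4 had 49.7 RPKM in the untreated null and 17.1 RPKM in untreated wild type, 2.91-fold (2.73 to 3.10) higher, and Ndufa12 was 2.45-fold (2.31 to 2.60) higher. Ndufa2 and Ndufa7 were 1.88-fold (1.80 to 1.97) and 1.90-fold (1.83 to 1.97) higher. At the low end were Ndufa8, 1.58-fold (1.501 to 1.67) lower in the null, and the core subunits Ndufs7, 1.56-fold (1.497 to 1.62) lower, and Ndufs1, 1.46-fold (1.41 to 1.51) lower. The factors had a median of −0.10, and none was past 2-fold.

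With arsenite in both, the median of the subunits was −0.05 and that of all genes −0.28. No subunit was higher in the null by 2-fold (8.75% of all genes), while Ndufs1 and Ndufb8 were lower (16.9% of all genes). Ndufs1 was 2.86-fold (2.40 to 3.43) lower and Ndufb8 2.10-fold (1.91 to 2.33) lower in the null with arsenite than in wild type with arsenite. The largest positive differences were those of Ndufb7, 1.82-fold (1.76 to 1.89), Ndufa11, 1.73-fold (1.65 to 1.82), and Ndufv3, 1.72-fold (1.63 to 1.81). Among the factors, Ndufaf2, Ndufaf4 and Ndufaf6 were lower in the null by 2.85-fold (2.51 to 3.23), 3.98-fold (3.02 to 5.29) and 2.58-fold (1.91 to 3.52), and the median of the 8 was −0.33. The sign of the subunit median depended on the scaling: it was 0.235 after subtracting the median of all genes and −0.14 after scaling to the summed RPKM.

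The log2 difference with arsenite was lower in the null than in wild type for 27 of 37 subunits and 6 of 8 factors. The same held for 6666 of all 12588 genes. Median differences of the log2 values, null minus wild type, were −0.43, −0.20 and −0.06 in the same order. Genes with a mean of at least 10 RPKM had medians of −0.25 to −0.26 in the length classes from 500 bases up, and −0.01 from 200 to 500 bases. The factor median was thus not below that of most such classes. Nuclear subunits of complexes II, III, IV and V had medians of −0.70, −0.80, −0.35 and −0.60. This null-minus-wild-type value was at most −1 in Ndufa7, Ndufb8, Ndufa12, Ndufb6, Ndufb4, Ndufab1 and Ndufs5 and in the factors Ndufaf2, Ndufaf4 and Ndufaf6. That size was reached by 12.8% of all genes. No member reached 1, as 12.1% of all genes did. The most negative was Ndufa7, at −1.46, with 133 and 83.0 RPKM with and without arsenite in the null and 195 and 43.7 RPKM in wild type. On the positive side Ndufv3 and Ndufa8 both reached 0.78. For all 7 subunits at −1 or below, and most for Ndufb4, Ndufa12 and Ndufa7, the untreated null stood above untreated wild type. That library pair enters this value. Across the 37 subunits the arsenite differences of the genotypes, which share no library, had a Spearman rho of 0.85.

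**Figure D3:**
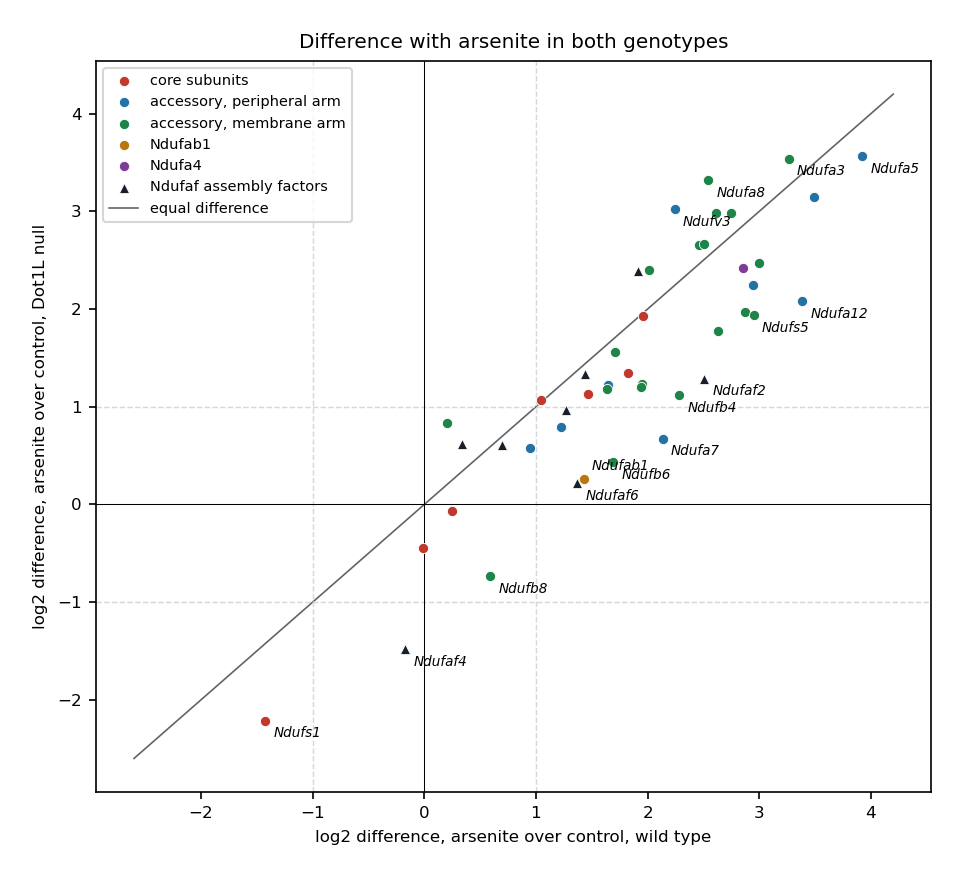
Log2 difference with arsenite of each nuclear complex I gene in Dot1L null cells (vertical axis) against wild-type cells (horizontal axis). Dots are subunits and triangles Ndufaf factors, the solid line marks equal differences and the dashed lines 2-fold. More points lie below the line than above it, and Ndufb8 lies at −0.73 in the null and 0.59 in wild type.

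Other complex I genes were read alongside. The mitochondrially encoded core subunits of the membrane arm, of which 5 of 7 passed the filter, had medians of 1.19 in the null and 1.70 in wild type, with 3 and 5 of them higher by 2-fold. mt-Nd5 had 5318 and 660 RPKM with and without arsenite in the null and 2613 and 739 RPKM in wild type, and mt-Nd1 1478 and 1277 RPKM and 3315 and 1260 RPKM in the same order. The largest difference of the 5 in each genotype was that of mt-Nd6, at 3.97 and 3.81. It had 333 and 20.3 RPKM with and without arsenite in the null and 314 and 21.4 RPKM in wild type. Of 11 further assembly factors, 2 were higher and 3 lower in the null and 2 higher and 1 lower in wild type, with medians of −0.28 and −0.09. These counts were near or below the shares of all genes, 15.2% and 12.8% higher and 37.1% and 35.7% lower. Dmac1, which acts in the distal membrane arm, and Timmdc1, which anchors an early membrane module, were higher in both, with differences of 2.01 and 1.42 in the null and 2.18 and 1.01 in wild type. Tmem186 was lower in both, at −1.55 and −1.26, and Acad9, a partner of Ndufaf1, had −1.03 and −0.82. These 11 had a median length of 1820 bases.

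In complex IV the assembly factors also had lower medians than the subunits, whereas in complex II, and in complex III of the null, theirs were the higher ones. Nuclear subunits of complex IV, cytochrome c oxidase, were higher in 8 of 10 cases in the null and 10 of 10 in wild type (medians 2.29 and 2.30), and its assembly factors in 6 of 16 in each, with 3 lower in the null and 1 in wild type (−0.26 and 0.16), with median lengths of 696 and 1866.5 bases. Complex II had medians of −0.63 in the null and 0.53 in wild type for its 4 subunits and 0.83 and 1.08 for 4 assembly factors. In complex III, 4 of 9 nuclear subunits were higher and 2 lower in the null and 5 were higher in wild type (medians 0.98 and 2.76), with 3 of 6 assembly factors higher in each genotype (1.05 and 0.79). Complex V, the ATP synthase, had 11 of 15 nuclear subunits higher in each genotype (1.94 and 2.21). Of all genes, 15.2% and 12.8% were higher and 37.1% and 35.7% lower in the null and in wild type. Of all genes from 500 to 1000 bases, the class of the complex IV subunit median length, 55.2% and 50.2% were higher. From 1000 to 2000 bases, that of the median length of its assembly factors, 31.4% and 27.9% were higher. The lowest subunits in wild type were below their controls in complexes II, III and V: Sdha, the flavoprotein of complex II, differed by −1.32 in the null and −1.43 in wild type, Uqcrc2 of complex III by −1.56 and −0.43, and Atp5a1 of complex V by −0.83 and −0.60.

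**Figure D4:**
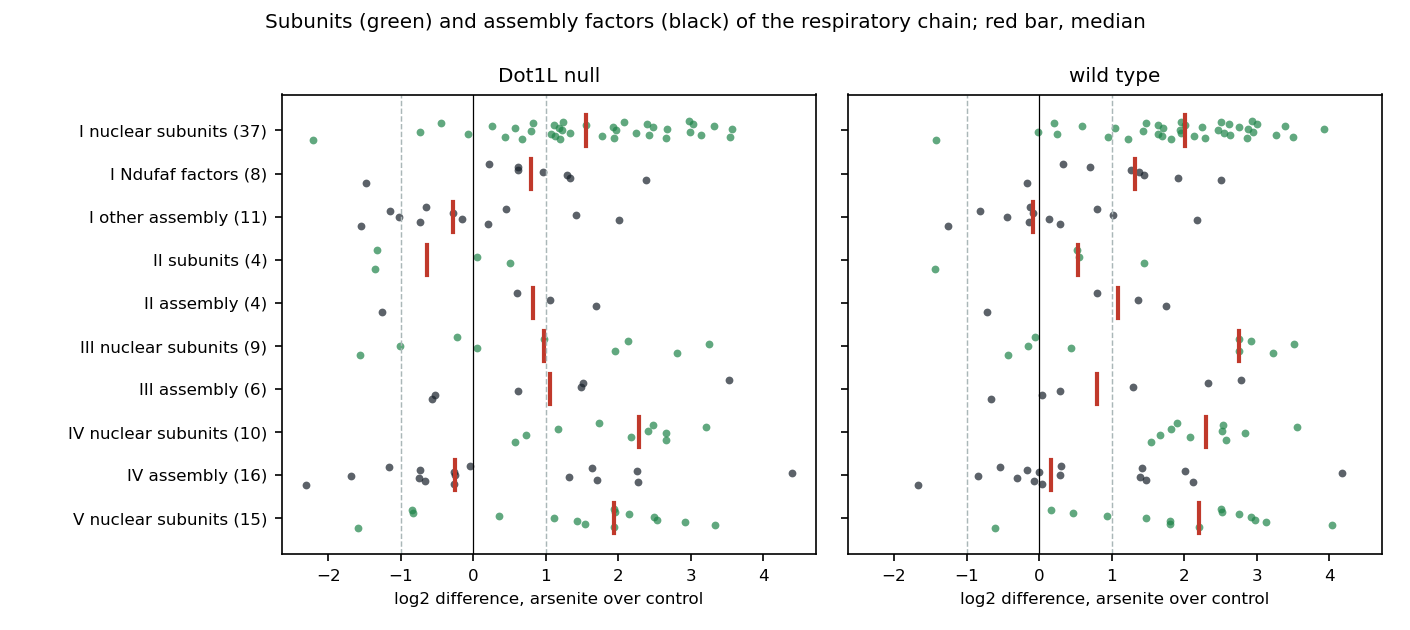
Log2 difference with arsenite of genes of respiratory complexes I to V, in Dot1L null cells (left) and wild-type cells (right), with the number of genes past the filter in brackets. Green points are subunits, black points assembly factors and red bars medians, and the complex I subunits stand at medians of 1.56 and 2.01.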

How the data were processed

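The authors deposited 1 table of RPKM values for 37224 Ensembl gene IDs and 4 libraries, 1 per group. TopHat, HTSeq, Bowtie and deepTools and the mouse build mm10 are named in the submitters' processing notes, without roles or versions. Which annotation was counted, and on which strand, is not given in the sources used here. The molecule is labelled polyA RNA, yet depletion of ribosomal RNA and strand marking are described per the labels' protocols. The 2 H3K27ac libraries were not analysed here, nor were Ndufb1, Coa1 and Pet117.

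Symbols were matched for 35449 IDs. Gene spans and promoters are from RefSeq GRCm38.p6, the assembly of mm10. Differences are log2((RPKM + 1)/(RPKM + 1)), a scale that understates those of low genes, over 12588 genes with at least 1 RPKM in any library, without further scaling. A gene was called at 2-fold on that scale. Folds with intervals are ratios of RPKM. Depth was recovered as the read total most often implied by 1 read on a small RNA gene of known length. Gene length was the shortest whole number of bases that made every value of a gene a whole number of reads (relative tolerance 1e-12). Such a length can be short by a whole factor and was used from 200 bases up. Recovered reads gave each ratio an exact 95% interval by the Clopper-Pearson method. These intervals cover counting error only, and reads are not independent molecules. The length trend is a lowess fit (fraction 0.3, statsmodels 0.14.6) over all genes. The functions were tested on simulated data.

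Values are given for the core subunits (1 gene counted in the groups is not reported here by itself), the Ndufaf factors, Ndufab1, Ndufa4, the 4 accessory subunits with the largest and the 4 with the smallest difference in each arsenite comparison, and 3 at each end in the other comparisons. Of other lists, the 2 largest and 2 smallest in wild type could be named. Members and lists were chosen with earlier results of these data known.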

Additional observations from a re-analysis of the deposited data

Results flagged for a closer look

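Members were looked at again where the 2 genotypes moved opposite ways with arsenite and the counting intervals of both ratios lay off 1. That held for 2 of 45, or 4.44%, beside 8.35% of the 12155 genes with a recovered length. Ndufb8 was 1.70-fold lower in the null and 1.53-fold higher in wild type, a difference of −1.32 on the log2 scale, null minus wild type. Ndufv1 was 1.05-fold lower in the null (95% counting interval 1.001 to 1.105) and 1.19-fold higher in wild type (1.13 to 1.25), a difference of −0.32. With 1 library per group neither difference was tested, and neither gene was past 2-fold in either genotype.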

How the results depend on the processing

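No paired analysis was possible because each group held 1 library. Protein length as an alternative to gene length was not run. The median of the subunits with arsenite (1.56 in the null, 2.01 in wild type) was 2.09 and 2.57 after subtracting the median difference of all genes (centring), 2.18 and 2.50 at the 75th percentile, 1.15 and 1.86 with the length trend removed, and 0.67 and 1.11 after scaling to the summed RPKM, an alternative added after the data were seen. It was 1.67 in the null with a filter at 5 RPKM. The median of the factors (0.79 and 1.32) was in the same order 1.33 and 1.88, 1.37 and 1.75, 0.30 and 0.82, and −0.0222 and 0.51. The gap between subunits and factors in wild type was 1.04 with the length trend removed, beside 0.70 as reported and 0.60 to 0.76 under the other settings.

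Counts moved as follows. After scaling to the summed RPKM 17 subunits were higher and 3 lower in the null, 1 factor was higher there and 2 were higher and 1 lower in wild type. With the length trend removed 1 factor was higher and 0 lower in the null and 2 were higher in wild type, and 0 subunits were lower in wild type. After centring or scaling to the 75th percentile 6 factors were higher in the null and 0 subunits lower in wild type, and with centring 0 factors were lower in the null. Of the 36 members higher in wild type, 28 kept that call without the length trend and 24 after scaling to the summed RPKM, and of the 30 in the null, 19 and 18.

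Between genotypes with arsenite, the subunit median (−0.05) was 0.235 after centring, 0.22 at the 75th percentile, 0.0933 without the length trend and −0.14 after scaling to the summed RPKM. Subunits higher there, 0 as reported, were 4, 3 and 4 under the first 3 of these and 1 with a pseudocount of 0.1 RPKM, and those lower were 1, 1 and 0. The factor median was −0.0502 after centring. Without arsenite, the subunit median (0.27) was 0.44, 0.41, 0.46 and 0.15 in that order, 5 subunits were higher after centring or at the 75th percentile, and the factor median was 0.0719 after centring. The subunit median of the difference of the arsenite effects was −0.31 at the 75th percentile. No called value of a member changed sign under any of these, and the causes of the shifts were not tested.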

Other observations

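Regulators of mitochondrial gene expression, a list of 11 genes of which 10 passed the filter, had negative medians. With arsenite 8 of them were lower by 2-fold in the null and 4 in wild type, with none higher, and medians of −1.71 and −0.75. The count in wild type is near the 35.7% of all genes that were lower there, and that in the null is set beside 37.1%. Gabpa, which encodes the DNA-binding part of an ETS factor, had 0.770 RPKM with arsenite and 13.7 RPKM without it in the null, and 2.19 RPKM with arsenite and 11.7 RPKM without it in wild type. Pprc1, a coactivator, had 4.56 and 36.0 RPKM with and without arsenite in the null and 6.44 and 30.1 RPKM in wild type. Gabpb1, the partner of Gabpa, had 1.94 and 5.98 RPKM with and without arsenite in the null and 3.11 and 3.97 RPKM in wild type. The list's median length was 4561.5 bases, and all genes of 4000 bases or more had medians of −1.13 and −1.16, so the list lay below them in the null and above them in wild type.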
